A study of Mus musculus with 7 samples.

Results

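The transcripts examined here encode enzymes of branched-chain amino acid catabolism, namely Bcat1, Bcat2, Bckdha, Bckdhb, Bckdk, Ppm1k, Ivd, Mccc1, Hibadh and Hibch. A probe belonged to the set when its gene name in the scanner files, or the current symbol of its transcript accession, was one of these 10 genes, which gave 14 of the 39429 non-control probes on the array. Transcript levels were measured by one-colour microarray in the quadriceps muscle of 4 wild type (WT) and 3 AR113Q mice of the C57BL/6 strain, all 3 months old (90 days in the series' design text, which calls the knock-in mice AR113Q-NCD without explaining the suffix). AR113Q mice are knock-in mice that carry an expanded tract of 113 CAG repeats, a model of spinal and bulbar muscular atrophy (SBMA), and they were sampled before motor symptoms appear. The labels call the controls WT, and so does the study's legend for these arrays, whereas its text describes the control line as mice with a humanized allele of normal repeat length, so whether the array controls carried that allele is not settled here. The labels do not give the sex of the animals, but the study's reporting summary states that its mice were male. Each array holds the muscle of 1 mouse, and their small number, 4 and 3, limits the precision of the values.

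Leucine, isoleucine and valine are broken down mainly outside the liver, and skeletal muscle is a main site of the first step. In that step the branched-chain aminotransferases, Bcat1 in the cytosol and Bcat2 in mitochondria, move the amino group to 2-oxoglutarate. The branched-chain keto acid dehydrogenase complex then decarboxylates the keto acids irreversibly, and it is switched off by the kinase Bckdk and on by the phosphatase Ppm1k. Further mitochondrial enzymes finish each branch, among them Ivd and Mccc1 for leucine and Hibch and Hibadh for valine.

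Among the 9 member genes that could be tested, 5 rose in AR113Q muscle and 1 fell, where 22.2% of all probes rose and 21.6% fell by the same rule. Bcat2, both subunits of the dehydrogenase component (Bckdha and Bckdhb), Ivd and Hibadh were 1.70- to 2.33-fold higher than in WT muscle, while Hibch was 1.66-fold lower (adjusted p of at most 0.05, limma, n = 4 and 3). Bckdk, Ppm1k and Mccc1 did not pass that threshold, and Bcat1 was too dim to be tested. Of the genes that rose, Bckdha and Ivd also passed the study's fold change limit for a differentially expressed gene, a change of 1 or more on the log2 scale in either direction.

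The 14 probes are 60-base oligonucleotides and most genes have 1 of them. The first 30 bases of 6 probes are shown because the values below rest on them, and because Ppm1k and Mccc1 were each read by a pair of probes. Capitals mark the 20 bases of a probe that occur most widely among RefSeq promoters, and a probe without such bases is in lower case.
Bckdha, A_51_P466148: aggctacttcactggggcaccatgtttgca
Hibch, A_51_P178735: actccagtcttcatcagaaatggtttgttg
Ppm1k, A_51_P265219: ttcattatgagaatggcttaagcaggaata
Ppm1k, A_55_P1968606: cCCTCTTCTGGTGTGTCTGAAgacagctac
Mccc1, A_55_P1953899: ctagatctcggagagaggagctttattaaa
Mccc1, A_55_P1970414: agaaactttgggaaagccttcctctgtttc
On mm9, the build of the array's annotation, the Bckdha probe lies at chr7:26415094-26415153 on the minus strand and the Hibch probe at chr1:52977535-52977594 on the plus strand. The Mccc1 probes lie close together on the minus strand, at chr3:35858790-35858849 and chr3:35858227-35858286. The first Ppm1k probe lies at chr6:57456890-57456949 on the minus strand. The second one, A_55_P1968606, is placed by the files at chr12:109737153-109737212 on the plus strand, although RefSeq has Ppm1k on chromosome 6. A stretch of 20 bases of this probe occurs in 82 of 32851 RefSeq promoters (GRCm38.p6) and in 17 other probes of the array, and its capitals alone occur in 43 promoters (0.1309%). None of the other 13 member probes shared a 20-base stretch with a promoter or with another probe. Exon and untranslated region annotation of mm9 was not used here.

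The promoters of 4 members are shown next, 250 bases before the transcription start site in RefSeq on GRCm38.p6 (read on the strand of the gene), since 3 of these genes rose and Hibch fell. Capitals mark CCAAT on either strand (ATTGG on the other strand), a common promoter motif.
Bckdha, chr7:25658762-25659011, minus strand: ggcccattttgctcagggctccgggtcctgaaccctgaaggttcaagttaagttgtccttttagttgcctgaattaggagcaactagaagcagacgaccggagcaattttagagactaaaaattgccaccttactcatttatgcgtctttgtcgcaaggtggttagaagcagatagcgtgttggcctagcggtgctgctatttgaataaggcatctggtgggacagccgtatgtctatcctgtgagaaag
Bckdhb, chr9:83924887-83925136, plus strand: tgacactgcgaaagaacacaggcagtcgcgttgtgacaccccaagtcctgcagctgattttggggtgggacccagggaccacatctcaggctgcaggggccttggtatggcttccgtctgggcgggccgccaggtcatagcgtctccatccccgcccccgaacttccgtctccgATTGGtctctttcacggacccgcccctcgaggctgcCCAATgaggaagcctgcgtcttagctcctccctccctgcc
Ivd, chr2:118861744-118861993, plus strand: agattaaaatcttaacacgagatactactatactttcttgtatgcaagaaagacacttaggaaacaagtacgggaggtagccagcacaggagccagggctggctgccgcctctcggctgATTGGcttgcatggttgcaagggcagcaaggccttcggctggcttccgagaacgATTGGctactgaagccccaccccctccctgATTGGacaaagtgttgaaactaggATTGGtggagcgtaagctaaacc
Hibch, chr1:52844788-52845037, plus strand: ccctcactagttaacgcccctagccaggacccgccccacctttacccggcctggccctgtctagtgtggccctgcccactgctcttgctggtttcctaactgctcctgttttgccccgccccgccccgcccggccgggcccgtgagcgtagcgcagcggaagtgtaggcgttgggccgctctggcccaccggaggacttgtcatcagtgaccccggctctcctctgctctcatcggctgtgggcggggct
The Ivd promoter held 4 matches and this Bckdhb promoter 2, whereas those of Bckdha and Hibch held 0, so that the motif was present in some and absent from other promoters of genes that rose. Of the 13 listed promoters of the 10 members, 7 held a CCAAT match (each of another gene), beside 33.85% of all 32851 promoters. CCACCC, a motif of Krüppel-like factors, was found in 3 members (28.08% of all promoters), and AGAACA, the core hexamer of steroid receptor response elements, in 2 members (16.08%). AAGGTCA, the motif of estrogen-related receptors, was found in 0 members (4.079% of all promoters). Each motif was searched on both strands, and a match is a description of letters only.

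Each array had 47.6% to 55.8% of its probes well above background and no saturated spot, and replicate arrays correlated with r of 0.9834 to 0.9873 in WT and 0.9693 to 0.9809 in AR113Q. The 11 skeletal muscle markers were well above background on every array, with summed signals of 813543 to 1050050 in WT and 699628 to 1104800 in AR113Q. Of them, 0 rose and 2 fell at an adjusted p of at most 0.05 (limma), beside 22.2% and 21.6% of all probes. The same shares stand beside the other marker counts. Of 6 adipocyte markers, 4 fell and the others did not pass, with sums of 59315.5 to 98882.5 in WT and 37989.5 to 46002.4 in AR113Q, so that the groups did not overlap, and Lep was not well above background on every array. Endothelial markers summed to 5564 to 6820 in WT and 3495 to 5261 in AR113Q, also without overlap. Of these 6 markers, 1 was higher and 1 lower. The lower one, Vwf, was the brightest of them (11.56 to 12.17 in WT and 10.41 to 11.31 in AR113Q) and weighs most in the sum. The sum therefore does not describe the endothelial list as a whole. Of 6 markers each, 2 macrophage and 4 fibroblast markers fell, 1 Schwann cell marker rose and 1 fell, and the summed signals of these 3 lists overlapped between the groups. The fibroblast sum leans on Dcn, the brightest of its list, which did not fall (15.75 to 16.04 in WT and 16.11 to 16.52 in AR113Q). None of 5 tested erythrocyte markers passed (limma, adjusted p of at most 0.05), and 1 had an unadjusted p of at most 0.05. Their sums were 44483 to 214679 in WT and 45262 to 57833 in AR113Q, and WT replicates 3 and 4, which share a slide, stood apart (Hbb-b1 at 12.14 and 13.30 against 10.22 to 10.90 on the other arrays). Among the muscle markers, Myh2, the myosin of type IIa fibres, split both groups, at 14.75, 14.82 and 15.92 in WT replicates 2 and 3 and AR113Q replicate 3 and at 11.27 to 12.14 on the others. Vwf, Dcn, Hbb-b1 and Myh2 were named after their values were seen. In muscle tissue, fewer cells of a type and less RNA per cell cannot be told apart, and the part of these shifts in the members' values was not tested.

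The first step was represented by Bcat2, whose probe gave normalized log2 signals of 10.32, 10.39, 10.18 and 10.65 in the WT arrays and 11.42, 11.05 and 11.35 in the AR113Q arrays. Every AR113Q array was above every WT array. The log2 fold change was 0.89 ± 0.18 (SE), 1.85-fold, with an adjusted p of 0.00469 (limma, n = 4 and 3). The cytosolic isoenzyme Bcat1, which is scarce in muscle, had 3 probes, and these were well above background on 2, 0 and 1 of the 7 arrays. The 2 readings of A_66_P127969 came from 1 WT and 1 AR113Q array, and the reading of A_55_P2079669 from AR113Q replicate 2, where it was 4.21. No fold change is given for these probes.

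The dehydrogenase component of the keto acid complex consists of alpha and beta subunits, and both rose. Bckdha, the alpha subunit, read 13.15, 13.33, 13.36 and 13.11 in WT muscle and 14.66, 14.17 and 14.56 in AR113Q muscle. Bckdhb, the beta subunit, read 10.94, 11.11, 10.86 and 10.80 in WT and 11.70, 11.55 and 11.86 in AR113Q. For neither gene did the groups overlap. Bckdha was 2.33-fold higher (log2 fold change 1.22 ± 0.17, SE; adjusted p = 0.00113, limma, n = 4 and 3), the largest change among the member probes. Bckdhb was 1.71-fold higher (0.78 ± 0.16; adjusted p = 0.00512, limma, n = 4 and 3). Of the remaining subunits, the transacylase Dbt stayed too close to background on every array to be tested, and Dld, which this complex shares with the pyruvate and 2-oxoglutarate dehydrogenases, had a log2 fold change of -0.17 ± 0.24 (adjusted p = 0.592, limma) and of -0.40 on its other probe (adjusted p = 0.348, limma). A change of the whole complex therefore cannot be read from these arrays.

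**Figure D1:**
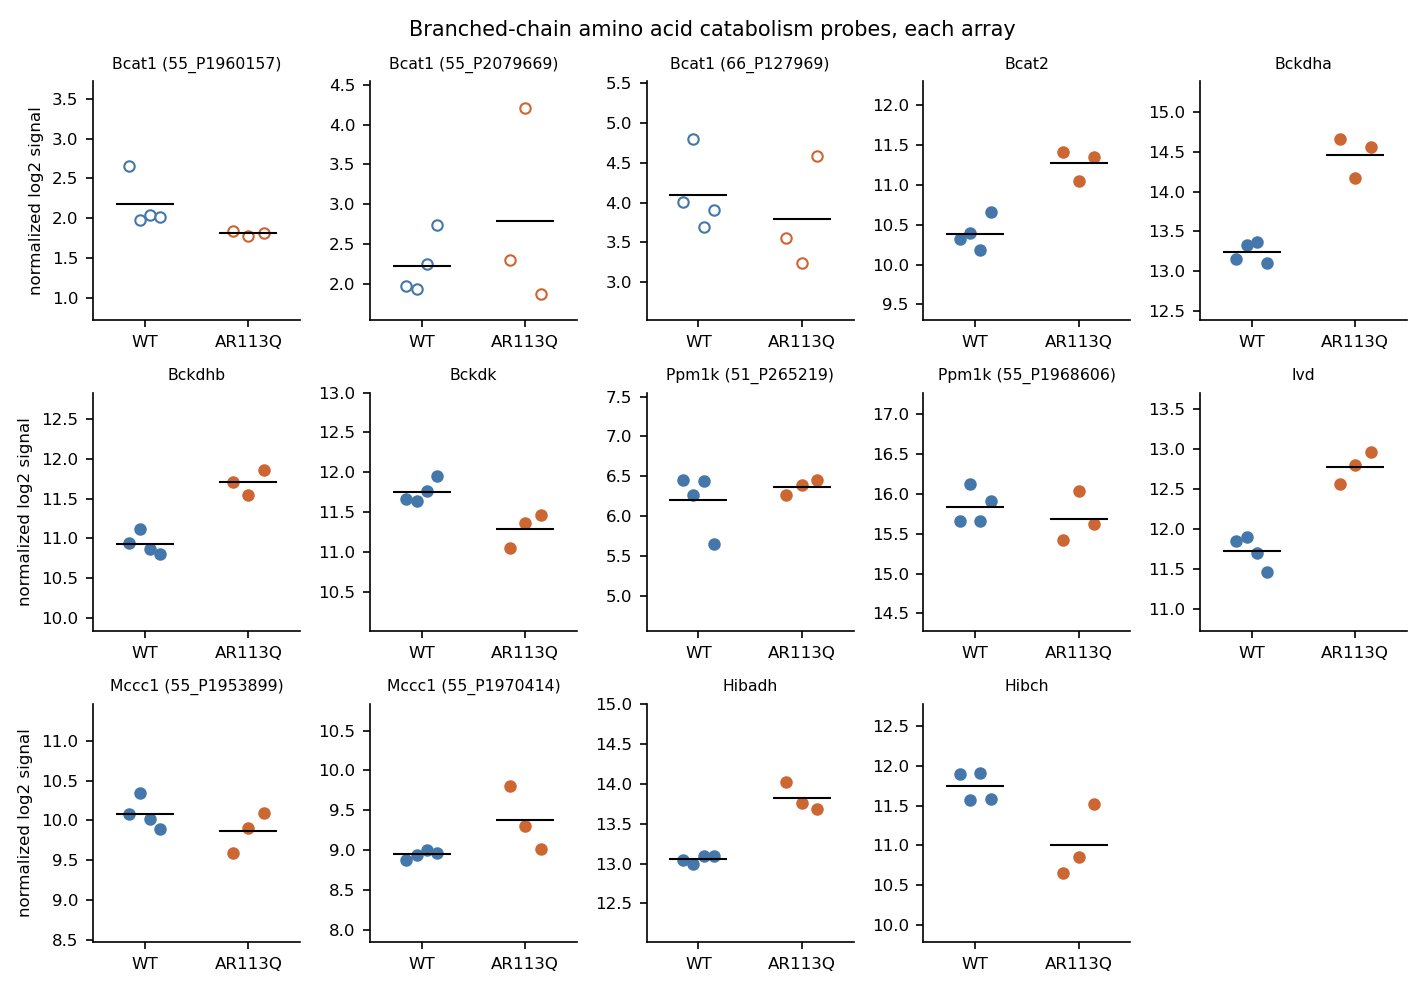
Normalized log2 signal (vertical axis, each panel with its own range) of all 14 member probes on each array, with 1 point per mouse, WT in blue (n = 4) and AR113Q in orange (n = 3), and a bar at the group mean; open points are probes that were not tested. AR113Q points stand above WT points for Bcat2, Bckdha, Bckdhb, Ivd and Hibadh and below them for Bckdk and Hibch, those of the second Mccc1 probe only just clear each other (9.00 and 9.01), and the Bcat1 probes are at the low end of the scale.

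The regulators of the complex gave no call. Bckdk, the inhibitory kinase, read 11.66, 11.64, 11.76 and 11.95 in WT and 11.05, 11.36 and 11.46 in AR113Q, so that every AR113Q array was below every WT array. Its log2 fold change was -0.46 (95% confidence interval -0.85 to -0.08), with an unadjusted p of 0.0241 and an adjusted p of 0.0538 (limma, n = 4 and 3). The adjusted p was at most 0.05 in 6 of 19 other ways of processing the arrays, with a range of 0.025 to 0.212, and the log2 fold change was negative in all 19. Ppm1k, the phosphatase that reactivates the complex, read 6.46, 6.27, 6.44 and 5.65 in WT and 6.26, 6.38 and 6.46 in AR113Q with the probe on chromosome 6. The WT range covered the AR113Q arrays, except that the highest of these was level with the highest WT array. This probe had a log2 fold change of 0.17 (95% confidence interval -0.34 to 0.68; adjusted p = 0.571, limma, n = 4 and 3), and its sign turned when WT replicate 4 was left out (-0.02).

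The other Ppm1k probe, whose bases are shared with many other places, read 15.66, 16.13, 15.66 and 15.91 in WT and 15.42, 16.03 and 15.62 in AR113Q. Its groups overlapped, and the log2 fold change was -0.15 (95% confidence interval -0.62 to 0.32; adjusted p = 0.588, limma, n = 4 and 3). The 17 probes that share 20 bases with it were annotated to 9 chromosomes and had a median log2 fold change of -0.16, with 1 of 17 at an adjusted p of at most 0.05. This probe is the brighter of the pair, so a rule that takes the brightest probe of each gene would report it as Ppm1k.

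In the leucine branch, Ivd rose while the Mccc1 probes did not pass. Ivd, isovaleryl-CoA dehydrogenase, read 11.84, 11.90, 11.70 and 11.46 in WT muscle and 12.56, 12.81 and 12.97 in AR113Q muscle. The groups were separate, at 2.07-fold higher in AR113Q (log2 fold change 1.05 ± 0.18, SE; adjusted p = 0.00234, limma, n = 4 and 3). Leaving out WT replicate 4 or AR113Q replicate 3 brought Ivd to 0.96, under the fold change limit, with adjusted p between 0.00385 and 0.00903 over all omissions (limma). Mccc1 encodes the biotin-carrying subunit of methylcrotonyl-CoA carboxylase, and its probe A_55_P1953899 read 10.08, 10.34, 10.01 and 9.89 in WT and 9.60, 9.91 and 10.10 in AR113Q. The groups overlapped (log2 fold change -0.21; 95% confidence interval -0.63 to 0.21; adjusted p = 0.379, limma, n = 4 and 3), and the value moved between -0.08 without AR113Q replicate 1 and -0.33 without AR113Q replicate 3 (it was -0.13 without WT replicate 2). The probe A_55_P1970414 of the same gene read 8.87, 8.94, 9.00 and 8.96 in WT and 9.81, 9.30 and 9.01 in AR113Q. These groups did not overlap, but AR113Q replicate 3 was only just above the highest WT array. The log2 fold change of this probe was 0.43 (95% confidence interval -0.03 to 0.89; adjusted p = 0.119, limma, n = 4 and 3), and it ranged from 0.21 without AR113Q replicate 1 (adjusted p = 0.322, limma) to 0.61 without AR113Q replicate 3 (adjusted p = 0.0314, limma). The pair thus differed in sign, and no direction is given for Mccc1. The partner subunit Mccc2 had a log2 fold change of -0.04 (adjusted p = 0.867, limma) on its brighter probe and 1.58 (adjusted p = 0.00348, limma) on its dimmer one.

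The valine branch held neighbouring enzymes that moved in opposite directions. Hibch, which removes coenzyme A from 3-hydroxyisobutyryl-CoA, read 11.89, 11.58, 11.91 and 11.58 in WT muscle and 10.65, 10.85 and 11.52 in AR113Q muscle. AR113Q replicate 3 was just below the lowest WT array, and the other AR113Q arrays were well below it. The log2 fold change was -0.73 (95% confidence interval -1.27 to -0.20; adjusted p = 0.0335, limma, n = 4 and 3), 1.66-fold lower. The fall was the least settled of the member calls, since its adjusted p was at most 0.05 in 9 of 19 other ways of processing and ranged from 0.00504 to 0.105 when single arrays were left out, with log2 fold changes of -0.99 (without AR113Q replicate 3) to -0.55 (limma). Hibadh acts on the product of Hibch, and it read 13.05, 13.00, 13.10 and 13.10 in WT and 14.02, 13.76 and 13.69 in AR113Q. Its WT arrays lay within a narrow range, and every AR113Q array was above them. Hibadh was 1.70-fold higher (log2 fold change 0.77 ± 0.15, SE; adjusted p = 0.00427, limma, n = 4 and 3).

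**Figure D2:**
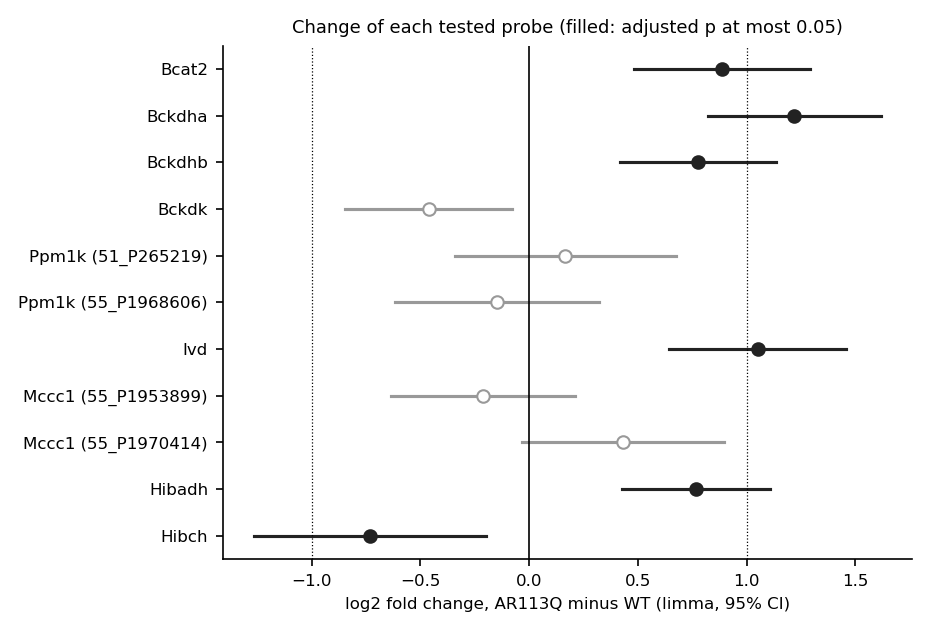
Log2 fold change of the 11 tested member probes (horizontal axis, AR113Q minus WT, limma), with points at the estimate, lines for the 95% confidence interval and dotted lines at -1 and 1; filled points have an adjusted p of at most 0.05. The intervals of the 5 higher probes lie above 0, that of Hibch lies below 0 at -1.27 to -0.20, and those of both Ppm1k and both Mccc1 probes cross 0.

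Counted by probe, 11 of the 14 could be tested, since 3 or more of the 7 arrays read them well above background. Of these, 2 rose and 0 fell when both limits were applied, an adjusted p of at most 0.05 (limma) and a log2 fold change of 1 or more in size. At an unadjusted p of at most 0.05, 5 rose and 2 fell, beside 26.3% and 25.7% of all probes. Across all 20991 probes tested, the rule with both limits called 12.2% higher and 12.6% lower, so that the members' 18.2% higher rests on a count of 2. The member count stayed at 2 with normexp background correction and with the authors' normalized values, while the calls over all probes in both directions, 5208 of 20991 here, were 2075 of 20991 in the former and 1592 of 18592 in the latter. With the adjusted p alone, 5 member probes (45.5%) rose and 1 (9.09%) fell, beside 22.2% and 21.6% of all probes. The groups did not overlap for 6 member probes with higher (54.5%) and 2 with lower (18.2%) AR113Q signals, beside 25.4% and 24.2% of all probes. The median log2 fold change was 0.43 over the 11 probes and 0.01 over all probes. No test over the list was made, so nothing here sets the members apart from other genes.

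The 5 slides offered 1 comparison within a slide, that of AR113Q replicate 1 with WT replicate 2. Within that slide the log2 difference was 1.03 for Bcat2, 1.32 for Bckdha, 0.59 for Bckdhb, 0.65 for Ivd and 1.03 for Hibadh. Hibch differed by -0.92 and Bckdk by -0.59, so that these probes kept the direction they had over all arrays. The Mccc1 probes differed by -0.74 and 0.87, further apart than over all arrays. When slide was fitted as a fixed block, which leaves this 1 comparison, 0 member probes had an adjusted p of at most 0.05 (limma) and 4 had an unadjusted p of at most 0.05, with adjusted p of 0.0731 for Bckdha and 0.193 for Ivd. Without WT replicates 3 and 4, the arrays high in erythrocyte markers, 4 member probes rose and 0 fell at an adjusted p of at most 0.05 (limma), with Bckdhb at 0.68 (adjusted p = 0.068) and Hibch at -0.73 (adjusted p = 0.134) no longer passing. Without the 3 arrays high in Myh2, 3 member probes rose and Hibch fell (-0.99, adjusted p = 0.0334, limma), with Bcat2 at 0.75 (adjusted p = 0.0806) and Bckdhb at 0.75 (adjusted p = 0.053) no longer passing. Every tested member probe kept its sign in both fits, which were added after the data were seen and hold fewer arrays.

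**Figure D3:**
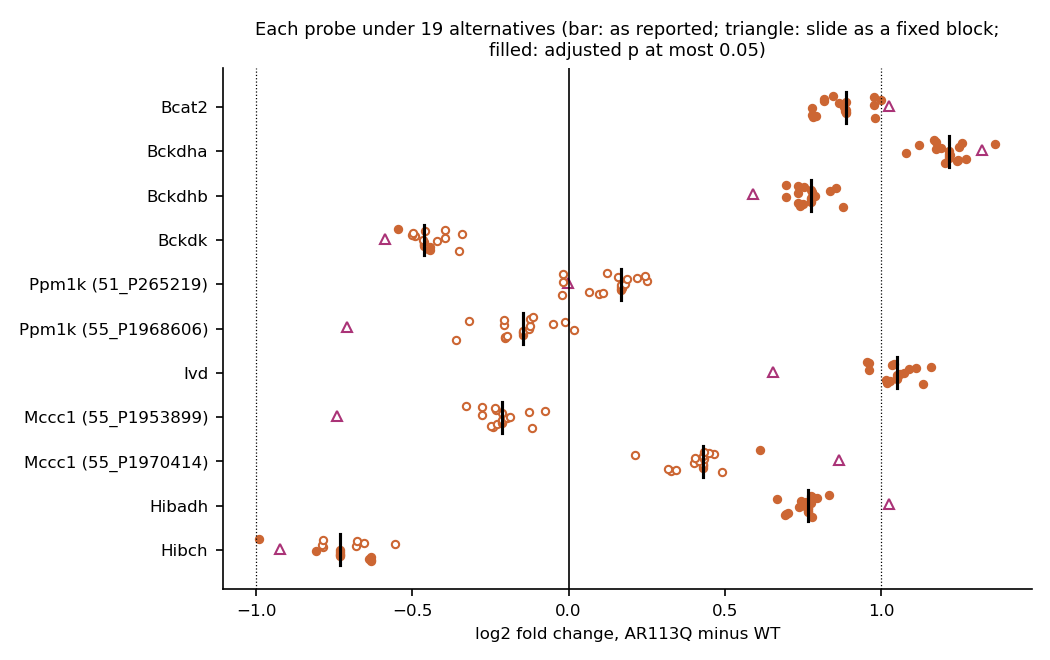
Log2 fold change of each tested member probe (horizontal axis, AR113Q minus WT) under 19 other ways of processing the arrays, with a bar at the reported value, circles for the alternatives, filled where the adjusted p is at most 0.05, and a triangle for the fit with slide as a fixed block. Points for Bcat2, Bckdha, Bckdhb, Ivd and Hibadh stay above 0 and those for Bckdk and Hibch below 0, whereas those of Ppm1k A_51_P265219 lie on both sides of 0 (-0.02 to 0.25).

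Most of the remaining enzymes of the pathway did not pass. Of 20 further catabolic genes, 19 were tested, 4 rose and 1 fell at an adjusted p of at most 0.05 (limma), with a median log2 fold change of 0.19. The count that rose is near the 22.2% of all probes that did so, and the count that fell is under the 21.6% of all probes. With each gene read by its brightest tested probe, Echs1, the short-chain enoyl-CoA hydratase that acts just before Hibch in valine breakdown, rose the most. Echs1 read 11.89, 12.30, 12.16 and 12.15 in WT and 13.38, 12.93 and 13.30 in AR113Q. It was 2.11-fold higher (log2 fold change 1.08 ± 0.18, SE; adjusted p = 0.00212, limma, n = 4 and 3). The others that rose, named after their values were seen, were Acadsb (0.86), Hsd17b10 (0.81) and Aldh6a1 (0.61), which act in isoleucine or valine breakdown. A dimmer probe of Acadsb, with a WT mean of 2.59, gave 3.23 (adjusted p = 0.000948, limma). A dimmer probe of Aldh6a1 gave 1.02 (adjusted p = 0.00248, limma). Mmaa, which handles the cobalamin cofactor of methylmalonyl-CoA mutase, fell by 0.85 on the log2 scale (adjusted p = 0.0107, limma). Acad8, the valine-specific dehydrogenase that acts just before Echs1, was also named after its values were seen and had a log2 fold change of -0.57 ± 0.36 (adjusted p = 0.225, limma). Its probe was dim, at 4.67 to 5.26 in WT and 3.42 to 5.04 in AR113Q, and was well above background on 2 of 3 AR113Q arrays.

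Of the transporters of branched-chain amino acids, 6 were read, each by its brightest tested probe. These 6 were higher in AR113Q muscle at an adjusted p of at most 0.05 (limma), beside 22.2% of all probes, with log2 fold changes of 0.79 to 2.86, and 4 of them also passed the fold change limit. Slc43a1, a carrier of large neutral amino acids in the cell membrane, read 9.55, 9.78, 9.37 and 9.88 in WT and 12.61, 13.05 and 11.85 in AR113Q. It was 7.26-fold higher (log2 fold change 2.86 ± 0.28, SE; adjusted p = 0.000274, limma, n = 4 and 3). The other transporters, named after their values were seen, were Slc43a2 (1.75), Slc7a8 (1.57), Slc7a5 (1.55), Slc25a44 (0.93), which brings the amino acids into mitochondria, and Slc3a2 (0.79), the heavy chain that pairs with Slc7a5 and Slc7a8. The Slc7a5 probe was itself dim, at 4.24 to 4.96 in WT, and was well above background on 3 of 4 WT arrays. Another, dimmer probe of Slc7a5 gave 0.52 and did not pass (adjusted p = 0.182, limma). Klf15, a transcription factor known to drive this pathway in muscle, was well above background on 1 WT and 2 AR113Q arrays and had a log2 fold change of 1.45 ± 0.79 (adjusted p = 0.168, limma). Ppargc1a, a coactivator of mitochondrial metabolism, had -0.37 ± 0.36 (adjusted p = 0.425, limma). Ppara, a nuclear receptor of fatty acid oxidation genes that was named after its values were seen, had a log2 fold change of 1.30 (adjusted p = 0.0691, limma) on its brightest probe, while its other probes passed at 1.26 (adjusted p = 0.0448, limma) and 0.88 (adjusted p = 0.0289, limma). Over the 9 genes of transport and regulation, each by its brightest tested probe, 6 rose and 0 fell at an adjusted p of at most 0.05 (limma; 0 fell at an unadjusted p of at most 0.05 as well), with a median log2 fold change of 1.45.

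Enzymes that handle the amino group and those of the neighbouring keto acid complexes moved in both directions. Of 6 amino nitrogen enzymes, the cytosolic aspartate aminotransferase Got1 rose (log2 fold change 1.22, adjusted p = 0.00711, limma) and the mitochondrial alanine aminotransferase Gpt2 fell by 1.04 (adjusted p = 0.00557, limma), with a list median of 0.09. Among 13 genes of the pyruvate and 2-oxoglutarate dehydrogenase complexes and their regulators, 3 rose and 2 fell, with a median of -0.02. These counts are at an adjusted p of at most 0.05 (limma), where 22.2% of all probes rose and 21.6% fell. The phosphatase Pdp2 rose the most (2.32, adjusted p = 0.000697, limma) and the phosphatase Pdp1 fell the most (-1.84, adjusted p = 0.00143, limma). Pdk4, the inhibitory kinase of the pyruvate complex and a relative of Bckdk, was named after its values were seen and rose as well (1.97, adjusted p = 0.00183, limma). Of 15 genes of the tricarboxylic acid cycle, which takes up the end products of the pathway, Idh3a, a subunit of the mitochondrial isocitrate dehydrogenase, fell (-0.89, adjusted p = 0.0349, limma), and the median was -0.11. Over these 5 lists, 62 of 63 genes were tested and 10 passed both limits, 8 higher and 2 lower in AR113Q, beside 12.2% and 12.6% of all probes.

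**Figure D4:**
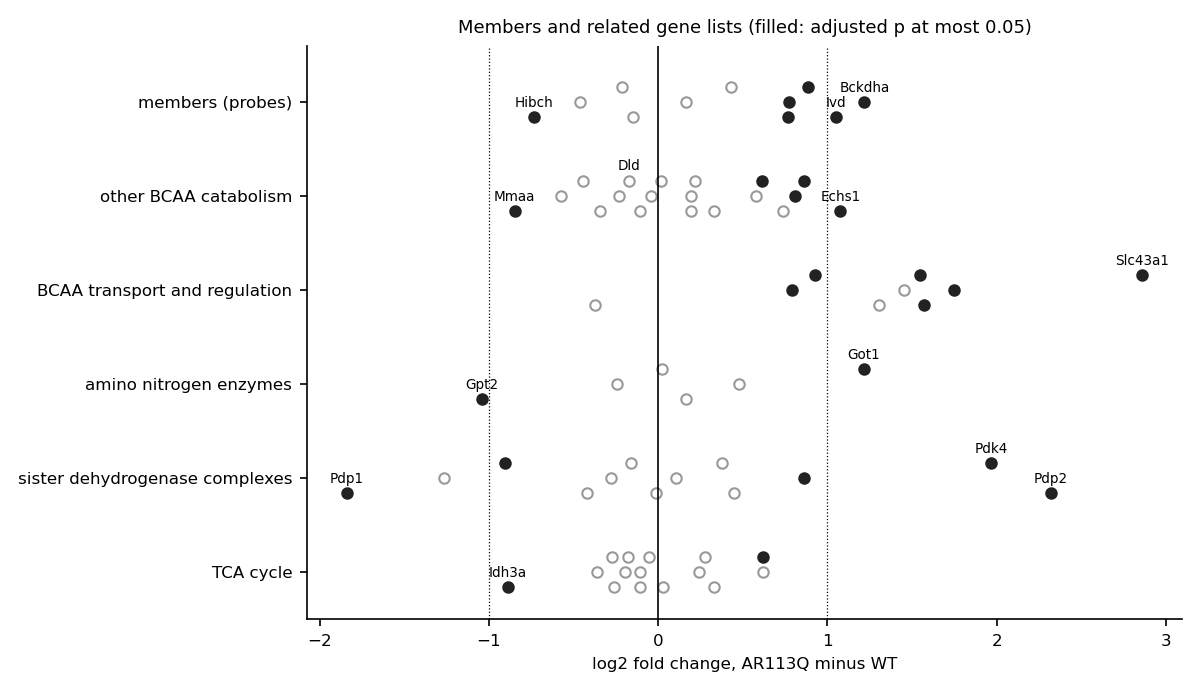
Log2 fold change (horizontal axis, AR113Q minus WT) of the 11 tested member probes and of each tested gene in the 5 further lists, 1 point per probe or gene (offsets in height have no meaning), with dotted lines at -1 and 1 and filled points for an adjusted p of at most 0.05. Transport and regulation genes reach furthest to the right (Slc43a1 at 2.86), tricarboxylic acid cycle genes cluster near 0 (median -0.11), and the members lie between -0.73 and 1.22.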

How the data were processed

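Total RNA from quadriceps muscle was labelled with Cy3 and hybridised to Agilent whole-genome mouse arrays by the authors, and the deposited intensity values (processed signal per spot) come from Agilent Feature Extraction 10.7.3.1, which subtracts background. The authors' deposited log2 value table was used only as an alternative. Here spot intensities were moved to log2, spots marked as outliers left out, the rest quantile normalized and the spots of a probe then averaged. The 20991 probes read well above background on 3 or more of the 7 arrays were tested with limma 3.58.1 in R 4.3.3 (lmFit, eBayes, Benjamini-Hochberg over all 20991). Of 39429 probes, 28330 were named through RefSeq accessions. Fold changes are AR113Q minus WT, and intervals are 95%. Each list gene was read from its brightest tested probe. The members and lists were chosen with earlier results of these data known: all members and, of the further lists, the most increased and most decreased gene, the known regulators Klf15 and Ppargc1a, and the partner subunits Dbt, Dld and Mccc2 were named by rule. Replicate numbers did not pair the samples (correlations of deviations 0.04, -0.02 and 0.16). The procedure was tested on simulated data with 200 of 20991 probes changed by 2 on the log2 scale, of which 82.5% were recovered with 4 false calls. The simulated noise was independent between arrays and the members' changes (-0.73 to 1.22) are smaller than 2. These figures therefore do not carry over to the members. Values of some genes are not reported here. Alternatives concerned background correction, scaling, probe filter, variance model, slide, replicate block and single arrays left out.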

Additional observations from a re-analysis of the deposited data

Results flagged for a closer look

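Among 36 probes whose WT arrays were checked for one array lying far from the others (the 3 AR113Q arrays are too few for this check), 2 were flagged by a criterion (Dixon's 95% critical value) that chance alone meets in about 5% of such groups. For Mccc2 the gap of WT replicate 2 (8.56) to its nearest neighbour took 0.8467 of the range of the WT arrays. For Pdpr, the regulatory subunit of the pyruvate dehydrogenase phosphatase, the gap of WT replicate 1 (4.63) took 0.9139 of that range.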

How the results depend on the processing

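Bcat2, Bckdha, Bckdhb, Ivd and Hibadh kept an adjusted p of at most 0.05 (limma) in 18 of 19 alternatives, the exception being slide as a fixed block, and Hibch in 9 of 19. Counts that passed both limits were 5208 for all probes, 2 for member probes and 10 for list genes. All probes numbered 2075 with normexp background correction, 2264 with mean intensity, 1592 with the authors' normalized values and 9199 with no fold change limit. Member probes numbered 6 and list genes 20 without that limit, list genes 6 with the authors' values and 16 when any tested probe of a gene could pass. With slide as a fixed block, which leaves 1 comparison within a slide, all 3 counts were 0 (limma). At an unadjusted p of at most 0.05 this fit gave 7923 probes, 4 member probes and 24 list genes. Leaving out single arrays gave 4454 to 5563 probes, 1 to 2 member probes (1 without WT replicate 4 or AR113Q replicate 3) and 8 to 13 list genes. The replicate block, which leaves WT replicate 4 without a partner, gave 5190 probes and 1 member probe, with Hibch at an adjusted p of 0.0516 and Ivd at a log2 fold change of 0.96, and it changed no other member call. Ppm1k A_51_P265219 turned negative with 75th percentile scaling (-0.0224), slide as a fixed block (-0.00242), the replicate block (-0.0191) and without WT replicate 4 (-0.0191, the lowest value with 1 array left out, against a highest of 0.251), and Ppm1k A_55_P1968606 turned positive with array weights (0.0178). Among the fits added after seeing the data, that without WT replicates 3 and 4 (high in erythrocyte markers) gave 4699 probes, 1 member probe and 8 list genes, and that without the 3 arrays high in Myh2 gave 5271 probes, 2 member probes and 15 list genes. The cause of these shifts was not tested. Bcat1 and Dbt were too dim for a fold change.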
